A study of Arabidopsis thaliana with 6 samples.

Results

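The regions described here are 227 stretches of nuclear chromatin called in the IP of HA-tagged PRR7 in experiment 2. No region that overlaps them was called in experiment 1. They were chosen by the calls themselves. Experiment 2 has a pair of deposited lists, KC and TL. A region of KC was kept when it overlapped a region of TL by at least 1 bp and overlapped no region of the HA-PRR7 IP or the untagged IP of experiment 1. The rule kept 227 of 372 nuclear KC regions (61%), out of 1563 regions in all 4 lists. KC and TL belong to 1 sample and count as 1 replicate, and the letters are explained nowhere in the labels. Calls, tags and folds of experiment 2 are therefore given as a description, with no test.

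HA-PRR7 plants carried the transgene PRR7::HA-PRR7 (line 151), an HA-tagged PRR7 driven by the PRR7 promoter, in the prr7-3 mutant background, so every plant of the series carried prr7-3. Untagged prr7-3 plants were the control for the anti-HA antibody. All were whole seedlings of 15 days, raised in cycles of 12 h light and 12 h dark with light of 70 µmol m-2 s-1, and the Murashige and Skoog medium held 0.8% agar and 2% sucrose. Line 151 is a single transgenic line, the labels do not give the hour of harvest, and whole seedlings mix all tissues. Input samples exist for experiment 1 only, so experiment 2 has no input in the series. No region list of the untagged IP of experiment 2 was used here. The control library behind the control tags is not stated, so whether they come from that untagged IP is not known. Each experiment contributed 1 HA-PRR7 IP.

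PRR7 is a pseudo-response regulator of the plant circadian clock. With its relatives PRR9 and PRR5 it represses the transcription of morning genes, among them CCA1 and LHY, during the day, and plants without several of these proteins are altered in flowering time, growth and cold tolerance. Many photosynthesis, flowering and cold-response genes of Arabidopsis are transcribed in a daily rhythm. ChIP-seq counts the DNA fragments that an antibody brings down. A tag is 1 mapped read, a region is a stretch where the caller found more IP tags than its background, and its summit is the position of the maximum.

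The lists differed in the depth they imply, read as the lowest background per 300 bp given by the tag enrichment of their regions. This implied background was 10.1 IP tags in KC and 10.2 in TL, against 2.31 in HA-PRR7 experiment 1 and 3.61 in prr7-3 experiment 1. The median region held 74.5 IP tags in KC and 75 in TL, against 10 and 15 in the experiment 1 lists of HA-PRR7 and prr7-3. The lowest region signal was about 10 on the caller's scale in every list. Depth, control library and experiment change together between these lists and cannot be told apart, and absence from an experiment 1 list says only that no region was called there. No tag count is listed for the 227 places in experiment 1.

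Each of the 227 regions was well covered in experiment 2. Their IP tags ran from 43 to 262 in KC with a median of 75 and quartiles of 60.5 and 97. In TL they ran from 42 to 251 with a median of 75 and quartiles of 61 and 95.5. They were narrow, 141 to 632 bp wide with a median of 260 bp. The 67 KC regions that were also called in TL and in HA-PRR7 experiment 1, called recurrent regions below, held a median of 124 KC tags (37 to 1054). The 78 nuclear KC regions without a TL partner held a median of 59 (39 to 389). The regions found only in experiment 2 thus covered the middle of the KC range and overlapped both other classes.

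IP tags of a region were alike in KC and TL, whereas fold enrichments often were not. The tag counts ranked the regions nearly alike (Spearman's rho 0.934 over 227 regions, a description of lists from 1 sample). The largest tag ratio between the lists was 1.85 among regions with a TL partner of their own, and 2.62 where 2 regions near RVE2 shared a TL region. Summits differed by a median of 4 bp, and 217 lay within 50 bp of each other. Fold is the authors' ratio of IP to control signal, in which control values under 1 count as 1, so that it equals the IP signal wherever the control was at most 1. It gave a rho of 0.345 and differed by a factor above 2 in 64 regions, at most 13.2. In all 64 the control signal was above 1 in at least 1 list, while the tags of those with their own partner differed by a factor of at most 1.26.

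Control tags were few at these places, as in the other KC sets. The KC median was 0 for the 227 regions. It was 1 for recurrent regions (at most 3) and 0 for KC regions without a TL partner (at most 2). No control tag was listed at 120 regions in KC and 125 in TL, at most 1 at 195 and 205, and never more than 4. Where the control signal was at most 1 in both lists (145 regions), the median fold, there the IP signal itself, was 13.7 in each. Where it was above 1 in KC alone (41 regions), the median fold was 4.31 in KC and 14.2 in TL. Where it was above 1 in TL alone (31 regions), the median fold was 12.96 in KC and 3.86 in TL. Tags were therefore used to describe the size of a region, and the fold is quoted with both lists. Words such as taller refer to tags over the whole region, which also depend on its width.

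**Figure D1:**
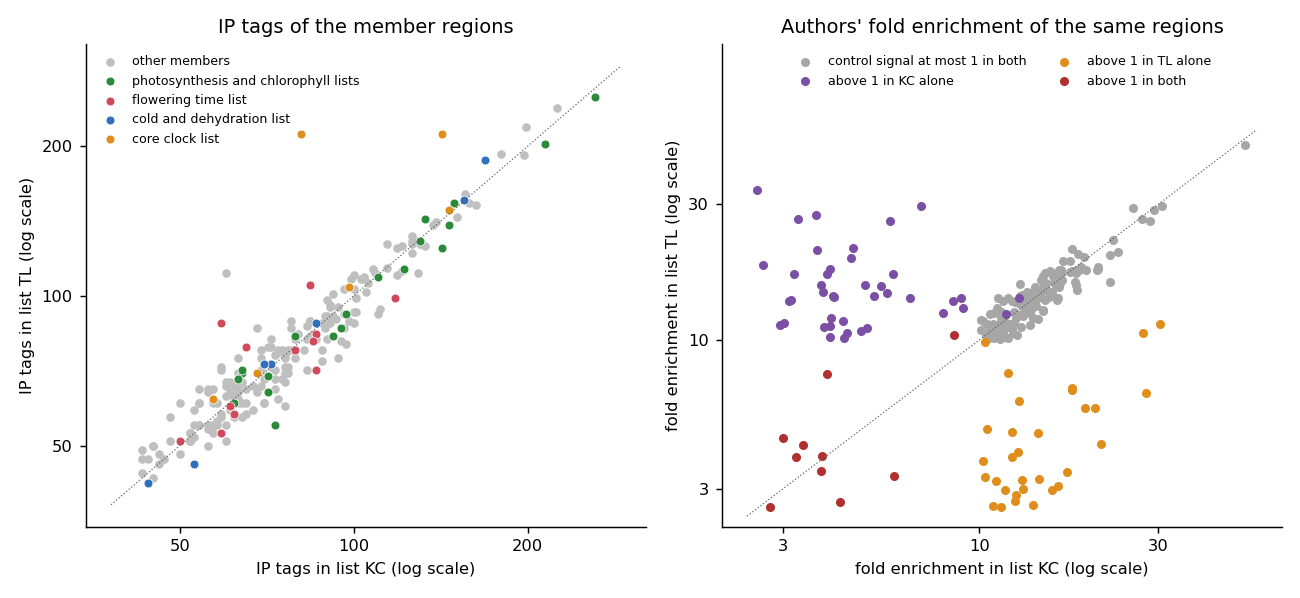
Left, IP tags of the 227 regions in list KC (x axis, log scale) and list TL (y axis, log scale), with regions at genes of 4 groups of gene lists in colour. Right, the authors' fold enrichment of the same regions on log axes, coloured by the control signal. Tags follow the dotted line of equality (rho 0.934), with ratios of at most 1.85 except for a region near RVE2 at 2.62, whereas folds leave the line where the control signal was above 1 in 1 list.

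The edge of the rule lay close to experiment 1 regions at some loci. The closest of the 227 regions to an experiment 1 HA-PRR7 region was 222 bp away, between RVE1 and UGP2, followed by regions at RVE7 (302 bp), between DME and SIR (309 bp), at BBX31 (325 bp) and at BT2 (346 bp). Just outside the rule, the KC regions with the smallest overlaps shared 68, 97 and 116 bp with experiment 1. In all, 11 of the 227 were within 1000 bp and 30 within 5000 bp of an experiment 1 region, and the median distance was 50828 bp. The closest prr7-3 region was 1134 bp away. The smallest overlap with TL was 132 bp, and every region shared at least 79.8% of the shorter partner.

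The position of the summits was not used by the rule and could be tested. Of the 227 summits, 114 lay between genes, with a protein-coding gene at most 1000 bp away (50.2%, exact Clopper-Pearson 95% interval 43.5% to 56.9%). A further 78 were inside a gene (34.4%, 28.2% to 40.9%) and 35 were between genes and farther away (15.4%, 10.98% to 20.8%), the farthest at 2994 bp. The recurrent regions had 35 of 67 between genes and near one (52.2%), a difference of -2.02 percentage points (two-sided Fisher's exact test, Benjamini-Hochberg adjusted over 3 comparisons, p = 0.783). That p does not show that these sets are alike, since the interval of the recurrent share runs from 39.7% to 64.6%.

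The experiment 1 regions found in no other list were placed differently. Only 59 of 574 were between genes and near one (10.3%, 7.92% to 13.1%), 39.9 percentage points below the regions found only in experiment 2 (Fisher's exact test, adjusted p = 6.83e-32). In untagged prr7-3 it was 1 of 135 (0.741%, 0.0188% to 4.06%), 49.5 points below (Fisher's exact test, adjusted p = 2.96e-28). Inside genes lay 76.3% of the experiment 1 regions and 80% of the prr7-3 regions. Intervals and tests cover counting error over regions of these libraries, not the spread between plants. Regions of the experiment 1 sets also held fewer IP tags, with medians of 10 and 15, and were narrower, with medians of 130 and 133 bp. Their median control tags, as listed, were 13 and 24, above the IP tags, against 0 for the 227 regions in KC. The part of depth or control in the difference of position was not tested.

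**Figure D2:**
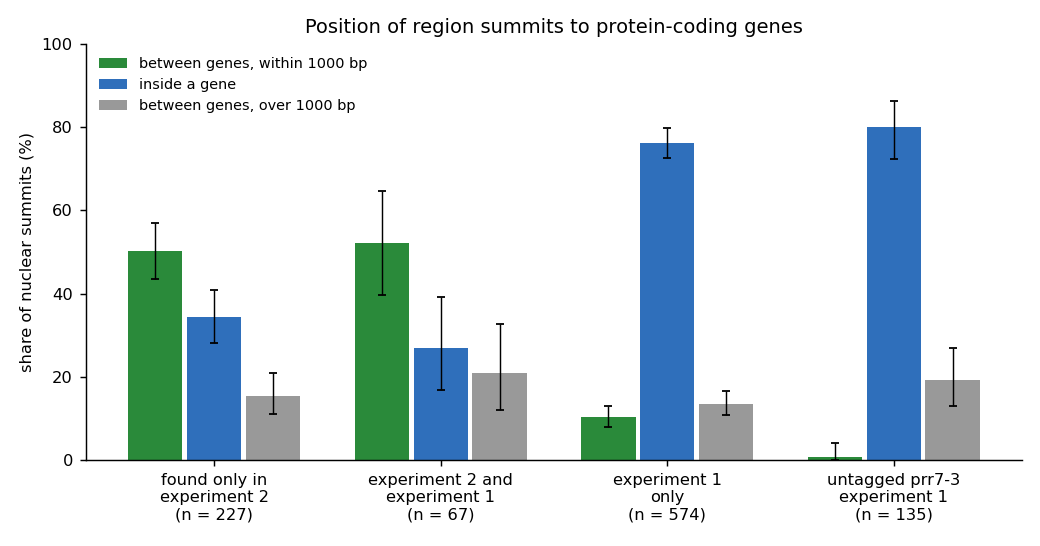
Share of nuclear summits in each position to protein-coding genes (y axis, %) for the 227 regions found only in experiment 2, 67 recurrent regions, 574 regions of experiment 1 only and 135 regions of untagged prr7-3. Bars are shares with exact 95% intervals. About as many summits of the 227 regions (50.2%) as of the recurrent regions (52.2%) lay between genes within 1000 bp, against 10.3% and 0.741% in the experiment 1 sets.

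Many summits of the 227 regions lay near a gene edge, between genes or inside one. The share of all genome positions that close to a gene edge was not computed. Of the 149 between genes, 41 were within 100 bp, 76 within 300 bp and 90 within 500 bp of the nearest gene, with a median distance of 287 bp. Of the 78 inside a gene, 68 were within 500 bp of one of its ends (87.2%, 77.7% to 93.7%), with a median of 144.5 bp. The same share was 72.2% in recurrent regions, 43.2% in experiment 1 only (median 565.5 bp) and 37.96% in prr7-3 (median 712.5 bp), values given without a test. The gene table used here lists no strand, so a gene's start and end could not be told apart. In 42 cases both neighbouring genes were within 1000 bp of the summit. The regions lay on chromosomes 1 to 5 in numbers of 60, 25, 42, 32 and 68.

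**Figure D3:**
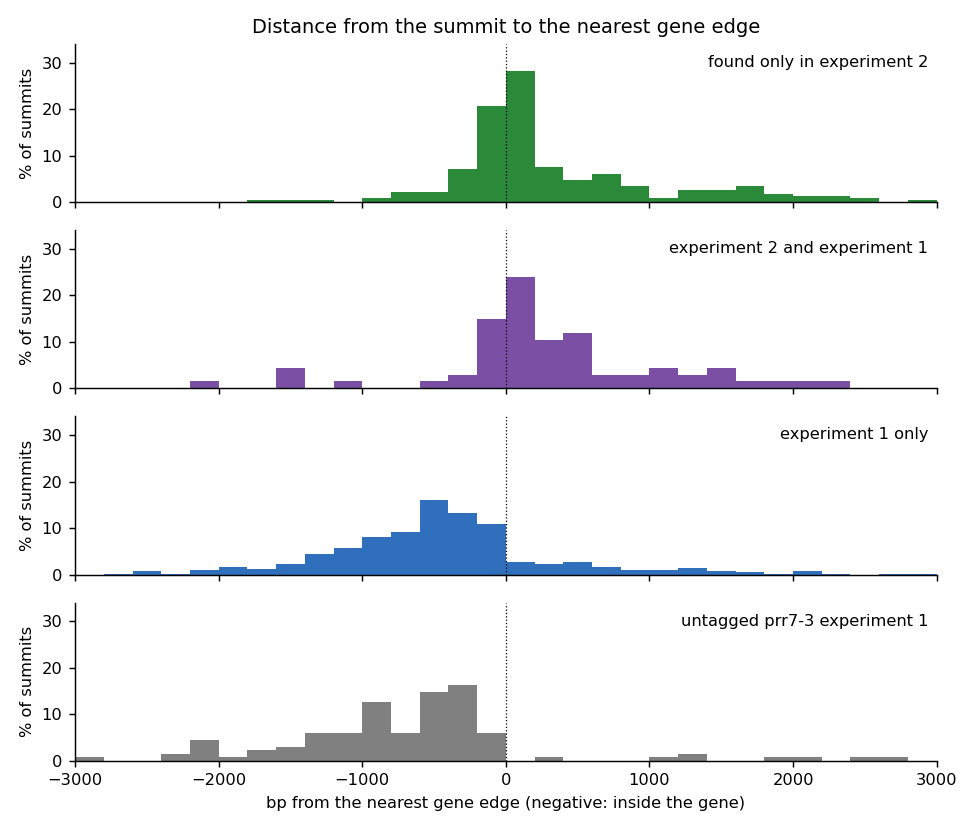
Distribution of the distance from each summit to the nearest edge of a protein-coding gene (x axis, bp, negative inside the gene; y axis, % of summits per bin of 200 bp) for the same 4 sets. The regions found only in experiment 2 and the recurrent regions peak at the gene edge, while the other sets lie mostly inside genes, with median depths of 565.5 and 712.5 bp among their gene-body summits.

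A summit was assigned to a gene it lay in and to the nearest gene on either side within 3000 bp, which gave 402 of 27432 protein-coding genes (1.47%) a region found only in experiment 2. Of the 227 regions, 60 had 1 such gene, 138 had 2 and 29 had more, so a named gene is often 1 of a pair of neighbours. Across 17 lists of genes, 54 of 305 genes had one (17.7%, against 1.47% of all genes), and 61 of the 227 regions (26.9%) were at a list gene. The lists were drawn up with earlier results of these data known, so their counts are a description.

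**Figure D4:**
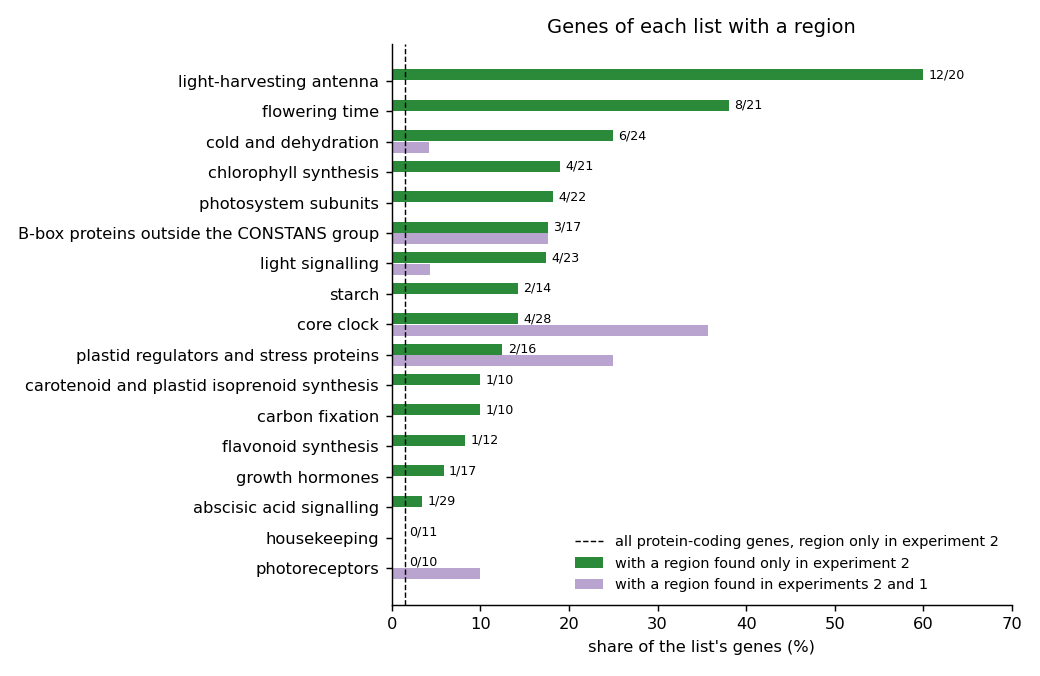
Share of the genes of each list (x axis, %) with a region found only in experiment 2 (dark bars, with counts) and with a recurrent region (light bars). The dashed line marks 1.47%, the share among all protein-coding genes. The antenna list stands highest at 60% with no recurrent region, and the core clock list has 4 genes with a region found only in experiment 2 and 10 with a recurrent one.

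Light-harvesting antenna genes made up the list with the highest share. They encode the chlorophyll a/b-binding proteins of photosystem I (LHCA) and photosystem II (LHCB), and 12 of 20 (60%, against 1.47% of all genes) had a region found only in experiment 2. None of the 20 had a region in either experiment 1 list, where 4.49% of all genes had an HA-PRR7 region and 0.944% a prr7-3 region, so that 0 of 20 is near the background. The 11 regions held a median of 133 KC tags, against 75 over all 227, and each summit was 14 to 224 bp from an end of an antenna gene. The antenna median thus lay above the upper quartile of the 227 (97 KC tags), but the 11 regions ran from 63 to 262, with LHCB2.3 lowest. Closeness to a gene edge was not particular to them. Of all 78 summits inside genes, 87.2% were within 500 bp of an end. Those between genes had a median distance of 287 bp to the nearest gene.

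The highest of all 227 regions lay beside LHCB1.1, on chromosome 1 from 10475926 to 10476248 (TAIR10). It held 262 IP tags and 1 control tag in KC and 251 IP tags and no control tag in TL, 51.1-fold and 48.6-fold, and ranked 7 and 6 by fold among all regions of those lists. Its summit was 133 bp from LHCB1.1 and 1783 bp from LHCB1.3, which is assigned to it only as the neighbour on the far side. A smaller region with 97 and 92 tags in KC and TL lay 32 bp inside LHCB1.2, the next gene of the cluster. LHCB1.1, LHCB1.2 and LHCB1.3 are near-identical neighbours, and how tags that match several places were handled is not stated, so the split of tags among them is uncertain.

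Other antenna genes of photosystem II had regions of 63 to 149 KC tags. LHCB2.1 (57 bp away) had 146 tags in KC and 139 in TL, with no control tag in either list and folds of 29.3 and 28.6. LHCB2.3, a close copy of LHCB2.1, had the weakest fold of the list, 2.99 in KC and 4.52 in TL, from 63 and 68 IP tags and 1 control tag in each. LHCB3 (79 and 83 tags) and LHCB6 (95 and 86 tags) held the summit inside the gene. LHCB4.2 (149 and 154 tags) and LHCB5 (133 and 143 tags) had it 146 and 158 bp outside, with the LHCB5 summit inside the neighbouring gene AT4G10330. For photosystem I, LHCA1 had 214 and 202 tags, LHCA3 122 and 113, and LHCA4 142 and 125 in KC and TL. Folds of LHCA1 (6.99 and 29.5), LHCB4.2 (4.55 and 19.4) and LHCA4 (16.2 and 3.06) differed between the lists although the tags did not. With a control signal of at most 1 in both lists required, 8 antenna genes remained counted.

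Photosystem subunits outside the antenna had regions less high. Of 22 genes, 4 had one (18.2%, against 1.47% of all genes). PSBO1 and PSBP1 encode extrinsic proteins of the oxygen-evolving complex, PSBR another photosystem II subunit and PSBS the sensor of the quenching that discards excess light. The PSBP1 region held 71 and 64 tags, PSBR 64 and 71, and PSBS 71 and 69 in KC and TL, each with the summit inside the gene. PSBR had a fold of 11.7 in KC and 2.96 in TL. PSBO1 is assigned from 2018 bp away, by a region of 110 and 109 tags inside AT5G66580. In carbon fixation, 1 of 10 genes had a region (10%, against 1.47% of all genes). It was GAPB, a subunit of the plastid glyceraldehyde-3-phosphate dehydrogenase (73 and 55 tags). No gene of these lists had an HA-PRR7 region in experiment 1, a count near the 4.49% of all genes. Only regions at or better than the median q value of their list left 1 photosystem gene and no carbon fixation gene.

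Enzymes of chlorophyll synthesis had a region in 4 of 21 cases (19.05%, against 1.47% of all genes). HEMA1, the glutamyl-tRNA reductase at the entry of the pathway, held a summit 62 bp from an end, with 92 and 83 tags in KC and TL and folds of 18.6 and 18.1. CHLH, the large subunit of magnesium chelatase, had 130 and 129 tags at 37 bp inside the gene. PORB, a light-dependent protochlorophyllide reductase, had 62 and 61 tags at 29 bp, and CAO, which makes chlorophyll b from chlorophyll a precursors, 64 and 70 tags at 48 bp. Experiment 1 HA-PRR7 regions were assigned to 3 of the 21 genes, against 4.49% of all genes. Among the 3 was PORB, whose nearest experiment 1 region was 1153 bp from the PORB region. The stricter q value left 2 of the 4 genes.

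Carotenoid and plastid stress lists had 1 and 2 genes with a region, 10% and 12.5% against 1.47% of all genes. ZEP, which makes violaxanthin from zeaxanthin, was 1 of 10 with 54 and 55 tags. The ferritin genes FER3 (80 and 84 tags, folds 4.95 and 15.6) and FER4 (45 and 50 tags, folds 11.4 and 12.1) were 2 of 16 among plastid regulators and stress proteins, a list in which 4 genes had a recurrent region. Both ferritin summits lay within 72 bp of the gene, between it and its neighbour.

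Core clock genes had a recurrent region more often than one found only in experiment 2. Of 28, 4 had a region found only in experiment 2 (14.3%, against 1.47% of all genes) and 10 a recurrent region. RVE1 and RVE7 had both, and the share of all genes with a recurrent region is not given here. The 4 genes with a region found only in experiment 2 belong to the REVEILLE family of MYB factors, relatives of CCA1 and LHY. RVE2 had 3 regions. The one at 167 bp held 98 and 104 tags in KC and TL with folds of 16.5 and 17.6. The other two lay 2411 and 2722 bp away, nearly midway to AT5G37270, with 81 and 142 tags in KC, and both overlapped a single TL region of 212 tags, so KC split what TL joined. RVE4, an activator of evening genes, held a summit 41 bp from its end with 68 and 70 tags.

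RVE1 and RVE7 stood at the edge of the rule. The RVE1 region, 1863 bp from RVE1 and 1623 bp from UGP2, held 146 and 149 tags, and a second region with 156 and 160 tags lay 373 bp from UGP2, which encodes a UDP-glucose pyrophosphorylase. Between the pair was a recurrent region of 37 KC tags that matched a region of 10 IP tags and 9 control tags in experiment 1. Both neighbours held more KC tags than the recurrent region and were wider. The RVE7 region (57 and 62 tags) was 302 bp from an experiment 1 region of 21 tags. Leaving out every region within 1000 bp of an experiment 1 region reduced the clock genes to 2, RVE2 and RVE4, and taking only the nearest gene also left 2. Ignoring HA-PRR7 of experiment 1 raised the count to 12.

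Flowering-time genes were the list with the next highest share after the antenna, 8 of 21 (38.1%, against 1.47% of all genes), with 12 regions and no recurrent one. The CYCLING DOF FACTOR genes encode repressors of CONSTANS. CDF1 had a region of 85 and 81 tags in KC and TL inside the gene and one of 62 and 58 tags 775 bp outside. CDF2 had one of 84 and 105 tags at 64 bp and one of 50 and 51 tags at 1221 bp, and CDF3 one of 86 and 84 tags at 1684 bp. AT1G69570, for which the gene table gives no symbol, held a summit with 61 and 60 tags and had an experiment 1 region of 23 tags 760 bp away.

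The CONSTANS-LIKE genes encode B-box zinc finger proteins related to CONSTANS. COL2 had the region of the list with the most KC tags, 118 in KC and 99 in TL, with no control tag and folds of 20.7 and 17.7, at a summit that also lay in the overlapping gene AT3G02390. COL1 had regions of 86 and 71 tags inside the gene and of 59 and 88 tags 313 bp outside, and COL5 regions of 79 and 78 tags inside and 65 and 79 tags 1324 bp outside. SMZ, an AP2-type repressor of flowering, was assigned a region of 59 and 53 tags 2432 bp away, nearly midway to TON1A. None of the 12 regions reached the antenna median of 133 KC tags. The stricter q value left 5 of the 8 genes.

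Light signalling genes had a region in 4 of 23 cases (17.4%, against 1.47% of all genes). PIF4, a bHLH factor that promotes growth in warmth and shade, held the tallest, with 180 and 193 tags in KC and TL, a summit 244 bp from an end and folds of 27.4 and 10.6. HYH, a bZIP relative of HY5, had 121 and 126 tags at 85 bp with folds of 3.69 and 20.8. HFR1, an atypical bHLH factor that acts against PIFs, had 2 regions, of 64 and 57 tags at 1041 bp and of 76 and 76 tags at 1464 bp, both nearer to AT1G02350. RUP2, a repressor of UV-B signalling, was 1394 bp from a region of 99 and 108 tags that was nearer to PHS1 (855 bp). Within 1000 bp only PIF4 and HYH counted.

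B-box genes outside the CONSTANS group had a region in 3 of 17 cases (17.6%, against 1.47% of all genes). BBX19 had a region of 96 and 92 tags at 287 bp, and BBX25 one of 94 and 95 tags 44 bp away, inside the neighbouring gene AT2G31370. BBX31 held a summit with 45 and 43 tags and had an experiment 1 region of 9 tags 325 bp away. A further 3 genes of this list had a recurrent region. None of the 10 photoreceptor genes had a region found only in experiment 2, a count near the 1.47% of all genes, and 1 had a recurrent one.

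Cold and dehydration genes had a region in 6 of 24 cases (25%, against 1.47% of all genes), with 7 regions. CBF1, CBF2 and CBF3, tandem genes on chromosome 4, encode AP2 factors that switch on cold-acclimation genes. The region 133 bp from CBF2 held 169 tags in KC and 188 in TL, with folds of 25.7 and 29.1. One inside CBF3 held 155 and 156 tags with folds of 22.7 and 22.4, and one on the other side of CBF3, 139 bp away, 86 and 88 tags with folds of 14.3 and 4.72. One at 675 bp from CBF1 held 72 and 73 tags. Inside CBF1 lay a recurrent region of 65 KC tags that matched one of 11 IP tags and 18 control tags in experiment 1. The regions of the cluster called only in experiment 2 held more KC tags, and each was wider than the recurrent one. The tandem copies are alike in sequence, and tags shared among them are uncertain here too.

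The other cold and dehydration genes had smaller regions. DREB2B, an AP2 factor of the drought and heat response, had 53 and 46 tags in KC and TL at 146 bp. GOLS3 and GOLS1 encode galactinol synthases, which make the precursor of raffinose. GOLS3 had 70 and 73 tags at 52 bp with folds of 13.2 and 13.04, and GOLS1 44 and 42 tags at 777 bp with folds of 2.76 and 2.57. The stricter q value left 3 of the 6 genes.

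**Figure D5:**
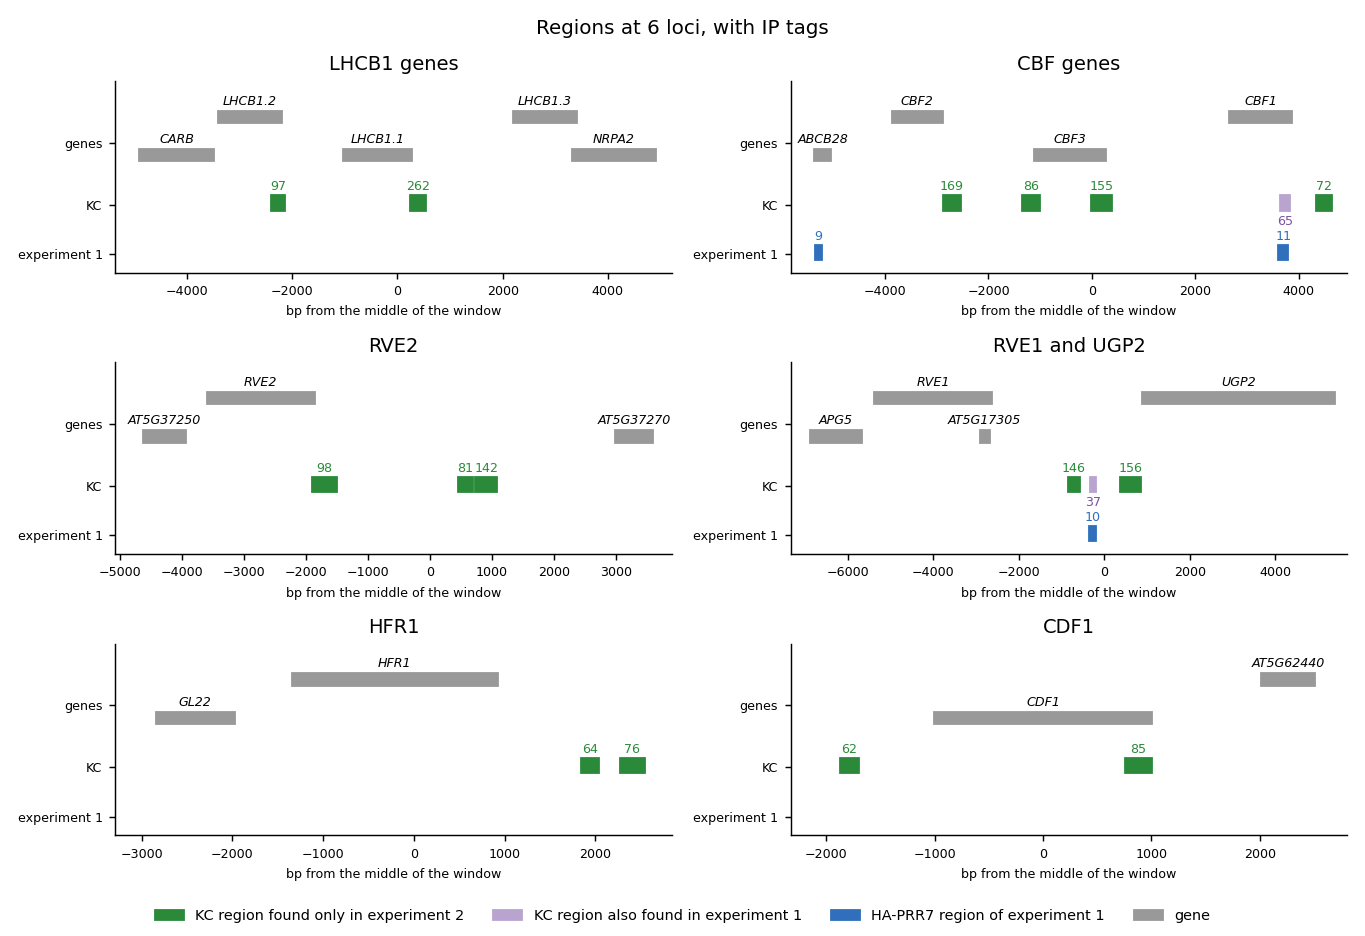
Genes (grey), KC regions found only in experiment 2 (green), recurrent KC regions (light purple) and experiment 1 HA-PRR7 regions (blue) at 6 loci, with IP tags of each region in its own list. The x axis is bp from the middle of the window. At the CBF genes and between RVE1 and UGP2 the regions found only in experiment 2 held 72 to 169 and 146 to 156 tags. The recurrent region beside them held fewer (65 and 37 tags) and was narrower.

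Other hormone and metabolism lists had 1 or 2 genes each with a region, to be read against 1.47% of all genes. In abscisic acid signalling, 1 of 29 genes counted (3.45%), HAI1, a protein phosphatase assigned from 2623 bp (74 and 78 tags). Among growth-hormone genes it was 1 of 17 (5.88%), the brassinosteroid receptor BRI1 at 1808 bp (92 and 91 tags, with 4 and 3 control tags). Starch had 2 of 14 (14.3%). GBSS1, the granule-bound starch synthase, had 129 and 111 tags 68 bp away. SS1, a soluble starch synthase, had 58 and 56 tags 141 bp away. Flavonoid synthesis had 1 of 12 (8.33%), F3H (78 and 78 tags, folds 3.39 and 4.26). None of 11 housekeeping genes had one, a count near the share of all genes. HAI1 and BRI1 lay beyond 1000 bp of their summits.

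Ranked by the worse of the fold ranks in KC and TL, the highest 20 regions held genes of several groups. Besides LHCB1.1, LHCB2.1, LHCA3, LHCB6, RVE2, CBF2, CBF3, HEMA1, RUP2 and COL2, they lay between AT3G55570 and AT3G55580 (197 and 192 tags in KC and TL), inside ftsh10 (133 and 126 tags), beside SULTR3;1 (101 and 93 tags), beside AT4G18650 (90 and 91 tags) and between DME and SIR (101 and 99 tags). SULTR3;1 is a sulfate transporter, SIR the sulfite reductase and DME a DNA demethylase. Others were beside PHR1, a DNA photolyase gene (91 and 88 tags), AT1G26790 (126 and 122 tags), AT5G59390 (119 and 110 tags), AT3G55240 and PDE329 (119 and 125 tags), and NIR1, the nitrite reductase (83 and 87 tags, 1776 bp away). Folds of the 20 ran from 17.5 to 51.1.

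The lowest 5 by the same ranking were at LHCB2.3, SHOT1 (97 and 80 tags), GOLS1, AFP3 (111 and 94 tags) and AT1G73470. The AT1G73470 region held 199 tags in KC and 219 in TL, more than most of the highest 20, and its fold was 2.56 in KC, with 4 control tags, and 33.8 in TL, with 1. AFP3 likewise had folds of 2.65 and 18.3. GOLS1, with 44 and 42 tags, was near the lowest tag count of the 227, and LHCB2.3, with 63 and 68, was below the median of 75.

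Some genes carried several of these regions. Of the 402 genes, 20 had more than 1, and RVE2 and CBF3 had 3 each. HFR1, CDF1, CDF2, COL1, COL5, UGP2 and PIP1B, an aquaporin gene, had 2 each. Of the 402 genes, 32 also had an experiment 1 HA-PRR7 region elsewhere near the gene (7.96%, against 4.49% of all genes), among them RVE1, RVE7, BBX31, BT2, CBF1, CBF2, PORB, F3H and HAI1. A prr7-3 region was assigned to 1 of the 402, SLD1 (0.249%, against 0.944% of all genes).

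Words in the symbols and synonyms of the gene table were counted too. Such a search finds only genes so named and misses many members of a class. Factors with a region such as PIF4, HYH, CBF3 and WRKY47 were not counted by it. Names with chlorophyll, photosystem or thylakoid had a region found only in experiment 2 in 20 of 89 genes (22.5%, against 1.47% of all genes), most of them the antenna genes above. Transporter or channel names counted 9 of 336 (2.68%), including SULTR3;1, CLC-B, OPT3, NiaP and TDT. Kinase or phosphatase names counted 10 of 724 (1.38%), with RPK2, TPS7, CKA1, ATTPPA and SLP1 first. Transcription factor or DNA-binding names counted 3 of 194 (1.55%), namely SEP3, GATA13 and MYB112. Chaperone names counted 1 of 67 (Cpn60alpha2), ribosomal names 2 of 70 (RPL23AA and PRPL35), unknown 1 of 26 (DAU2), and F-box or ubiquitin ligase names 0 of 48. The chaperone, ribosomal and unknown counts rest on 1 or 2 genes each. The 0 of 48 is near the 1.47% of all genes and does not show that such genes were absent.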

How the data were processed

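ChIP-seq regions of 3 samples were used, in 4 lists. Per the submitters' processing notes, Bowtie was the aligner and TAIR10 the genome build. Not given in the sources used here are the caller, its settings and control library, tool versions and the handling of reads with several matches. Regions are listed per sample, and pooling is not stated. Per the file headers, the deposited lists give the IP and control signal at the maximum, the fold, whole-number tag counts, -log10 q and p values and a rank score. The authors' deposited fold and q values served only to describe, rank and filter regions of the same list. In every region of each list the fold equalled the ratio of IP to control signal, the control raised to 1 where lower, within 1%. Depth was read as the background tags per 300 bp implied by the tag enrichment column, the lowest value over the regions of a list.

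Computed here (Python 3.11.15, NumPy 2.4.6, pandas 2.3.3, SciPy 1.17.1, matplotlib 3.10.9) were overlaps of at least 1 bp, and positions of summits to 27432 nuclear protein-coding genes of the RefSeq table (TAIR10.1, which lists no strand). Distances assume that TAIR10 and TAIR10.1 share nuclear coordinates. Overlap and placement were tested on simulated data. Near means within 1000 bp, and genes were assigned within 3000 bp. Position was compared by two-sided Fisher's exact test, adjusted by Benjamini-Hochberg over 3 comparisons. Exact Clopper-Pearson intervals (95%) cover counting error only. The members and gene lists were chosen with earlier results of these data known. Named are list genes with a region, the 20 best and 5 worst regions by worst fold rank over KC and TL, and at most 5 genes per word group, searched in symbols and synonyms. Sequence motifs were not analysed here. Alternatives changed the overlap, base list, q threshold, exclusion distance, experiment 1 exclusion, control signal, nearness and gene assignment.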

Additional observations from a re-analysis of the deposited data

How the results depend on the processing

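Other settings gave 50 values of the main results, of which 45 stayed within 1.5 times, within their interval or on their side of the threshold, and 5 moved. Only regions at or better than the median q value of their list left 106 regions and 35 list genes, fewer by construction. Requiring a control signal of at most 1 in both lists, a setting chosen after seeing the data, left 145 regions. Near taken as 500 bp gave 39.6% of summits between genes and near one, and as 3000 bp 65.6%. In each of these settings the share stayed above experiment 1 only and prr7-3. Leaving out HA-PRR7 replicate 1 gave 294 regions, 50.7% near genes, 71 list genes and a median of 79 KC tags. No region is left without replicate 2, so it gives no value. Of 136 values for single gene lists, 109 were alike and 27 moved. The planned motif shares were not run. No paired analysis was possible because overlaps between lists of regions involve no model in which replicates could be blocked. The smallest experiment 1 region held 6 IP tags, and 195 of the 227 regions held at most 1 control tag in KC and 205 in TL.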

Other observations

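Outside the 17 lists, 166 of the 227 regions lay at other genes, and the families named here were chosen after their values were seen. Among all genes 1.47% had such a region, and the family counts are high by that choice. BT genes encode BTB and TAZ domain scaffold proteins, and BT1 (100 and 93 tags in KC and TL), BT2 (76 and 72 tags) and BT4 (43 and 44 tags) had a region, 3 of 5. BT2 also had a recurrent region. Of the genes for ABI5-binding proteins, 3 of 4 had one: AFP2 (82 and 78 tags), AFP3 (111 and 94 tags) and TMAC2 (91 and 96 tags). Among cytokinin response factors CRF3 (54 and 61 tags) and CRF5 (76 and 67 tags) had one, 2 of 6.

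Transport and assimilation genes were also present. Aquaporins of the plasma membrane counted 3 of 13, with PIP1B, PIP1C (103 and 108 tags) and PIP2A (114 and 127 tags, 1692 bp away). Nitrate genes counted 2 of 6, the transporter NRT1.1 (44 and 47 tags, 1868 bp away) and NIR1. Sulfate genes counted 2 of 5, SULTR3;1 and SIR, while APR2 of the same group had a recurrent region. MIPS2, a myo-inositol phosphate synthase gene, was 86 bp from a region of 129 and 129 tags that lay inside AT2G22241, and its relative MIPS1 had a recurrent region. All these counts stand beside 1.47% of all genes, but families picked for their regions allow no comparison with other genes.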
